A study of Glycine max with 12 samples.

Results

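Of the 53808 genes in the deposited count table, 2 are described here: the heat stress transcription factor (HSF) genes Glyma.14G083700 and Glyma.07G086400. They were selected on their measured levels, as stress-response genes that the study found higher in heated *GmMYB21a-OE2* than in heated TL1. Both identifiers were found in the table. The study's annotation matches Glyma.14G083700 to Arabidopsis *HSFB4* and Glyma.07G086400 to Arabidopsis *HSFC1*, and these names are used below for the soybean genes. The libraries came from soybean (*Glycine max*) flower buds, in 4 groups of 3. TL1 is the cultivar Tianlong No. 1, a restorer line for cytoplasmic male sterility and the recipient of the transgene. *GmMYB21a-OE2* is a single line of TL1 that overexpresses *GmMYB21a*, a MYB transcription factor gene, from the vector pTF101.1. Plants of each line were kept at normal temperature (NT) or placed at high temperature (HT) from the start of flowering. Buds were taken from all heights of the plants and used whole, so that a lower level per cell and fewer cells of a type cannot be told apart. All 12 libraries carry high temperature as their treatment label, but 6 have NT in their title, and the titles were followed.

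Plant HSFs are transcription factors that bind heat shock elements, short repeated motifs in the promoters of heat shock protein genes. They fall into classes A, B and C by the form of the domain through which they join into trimers. Class A members are the activators of the heat response, whereas class B and class C members lack the activation motif of class A. Most class B members act as repressors. In Arabidopsis, *HSFB4* is known as SCHIZORIZA, a regulator of asymmetric cell division in the root.

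Total counts lay between 32058303 and 39654590 per library. *GmMYB21a* itself was taken to be Glyma.19G006500, which the study's annotation gives under the gene's former MYB name. It followed the labels, at 38.4 to 41.5 CPM (the usual scaling of counts by library size, here the TMM-normalized size) in *GmMYB21a-OE2* and 5.32 to 6.39 CPM in TL1 at NT, and at 10.3 to 11.5 against 0.810 to 1.12 CPM at HT. Replicate 3 of *GmMYB21a-OE2* at HT stood apart from the other libraries of its group. The chi-square per degree of freedom between replicates was 15.5 and 12.3 for the pairs with this library and at most 5.17 for other pairs. Differences of the 2 *HSFs* that use this library are therefore also given without it. Levels, and most values of other genes, are given only with it. Floral organ and leaf markers were not paired with identifiers in the sources used here. Of pollen wall markers, 3 genes annotated to the synthesis of sporopollenin, the polymer of the outer pollen wall, were picked by the study at HT, and all 3 had counts in every group.

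*HSFB4* was at its lowest in heated TL1. In TL1 it had 292, 253 and 237 counts at NT and 104, 89 and 106 at HT. In *GmMYB21a-OE2* it had 215, 305 and 235 counts at NT and 203, 222 and 252 at HT. The 3 libraries of heated TL1 were thus the only ones near 100 counts, and the other 9 were all above 200. In CPM, these levels at NT were 7.74 ± 0.422 for TL1 and 7.20 ± 1.41 for *GmMYB21a-OE2*, and at HT 2.77 ± 0.468 for TL1 and 5.70 ± 0.652 for *GmMYB21a-OE2* (SD, n = 3 each). From high to low, the order of the groups was TL1 at NT, *GmMYB21a-OE2* at NT, *GmMYB21a-OE2* at HT and TL1 at HT. Each of these groups overlapped with the next, except for heated TL1. Heated TL1 was separate from every other group. The summed CPM of the 3 sporopollenin genes was lowest in heated TL1, at 5.15 to 6.11, against 22.0 to 32.4 in heated *GmMYB21a-OE2*. At NT it was 30.4 to 44.9 in TL1 and 20.6 to 40.1 in *GmMYB21a-OE2*. The study picked these genes at HT too, so their gap between the lines at HT came with the choice. Any part of the sporopollenin genes in the levels of *HSFB4* and *HSFC1* was not tested.

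*HSFC1* was at its highest in heated *GmMYB21a-OE2*. In TL1 it had 104, 83 and 87 counts at NT and 61, 69 and 83 at HT. In *GmMYB21a-OE2* it had 87, 63 and 87 counts at NT and 163, 184 and 128 at HT. Here the 3 libraries of heated *GmMYB21a-OE2* were the only ones above 104 counts. In CPM, the levels at NT were 2.71 ± 0.216 for TL1 and 2.26 ± 0.393 for *GmMYB21a-OE2*, and at HT 1.98 ± 0.431 for TL1 and 3.99 ± 0.618 for *GmMYB21a-OE2* (SD, n = 3 each). From high to low, the order was *GmMYB21a-OE2* at HT, TL1 at NT, *GmMYB21a-OE2* at NT and TL1 at HT, and the last 3 of these lay close together. The NT groups of the lines overlapped, and so did *GmMYB21a-OE2* at NT and TL1 at HT.

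**Figure D1:**
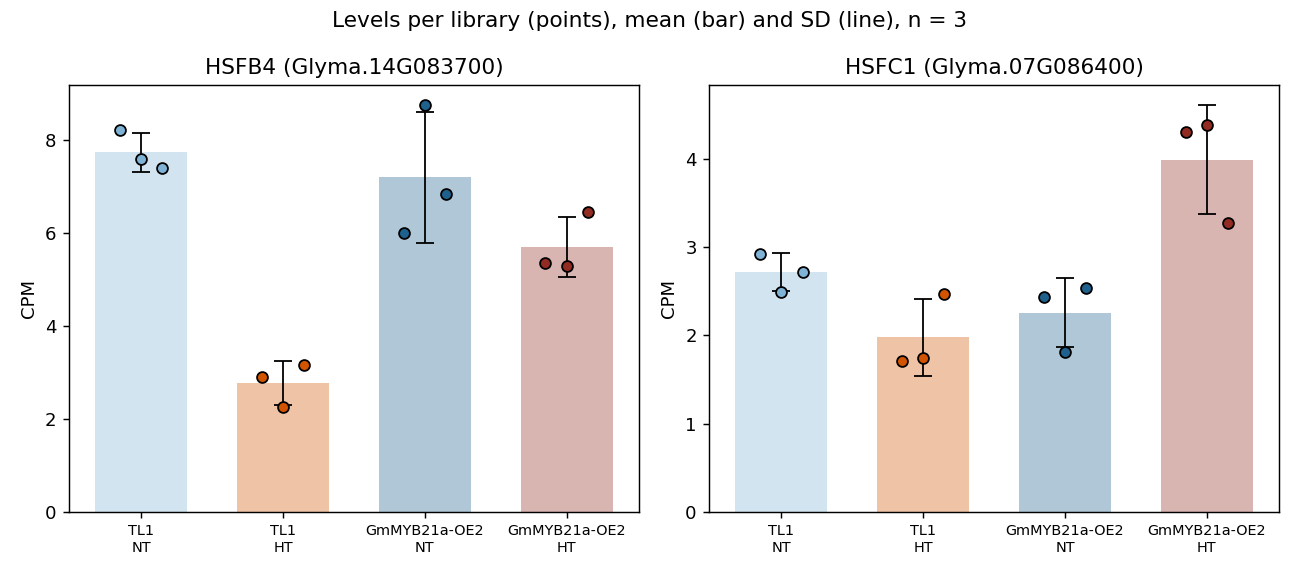
CPM of *HSFB4* (left) and *HSFC1* (right) in each library (points), with the mean (bar) and SD (line) of the 3 libraries of each line and temperature. For *HSFB4* the TL1 libraries at HT, at 2.25 to 3.16 CPM, lie below all others, and for *HSFC1* the *GmMYB21a-OE2* libraries at HT, at 3.28 to 4.39 CPM, lie above all others.

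With so few reads, counting alone gives an error of 6.19% to 10.02% of the mean for *HSFB4* and of 7.95% to 11.9% for *HSFC1*, depending on the group. The coefficient of variation between replicates was 5.45% to 19.5% for *HSFB4* and 7.97% to 21.8% for *HSFC1*. In TL1 at NT the replicates of either gene differed by no more than counting predicts. In the other groups the replicates spread more widely than that. Averaged over the 12 libraries, the CPM of *HSFB4* exceeded that of 39.8% of the 42839 genes tested, and the CPM of *HSFC1* that of 27.7%. These shares are not corrected for gene length.

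The HT difference between the lines chose these genes, so it is described without a test. Relative to TL1, *HSFB4* was 2.13-fold higher in *GmMYB21a-OE2* at HT, or 1.09 ± 0.17 (SE of the fit) on the log2 scale. *HSFC1* was 2.09-fold higher, or 1.06 ± 0.20 (SE) on the log2 scale. Both lay just above the log2 fold change of 1 that the study set as its threshold. Without replicate 3 of *GmMYB21a-OE2* at HT, the log2 fold change was 0.996 for *HSFB4*, just below the threshold, and 1.19 for *HSFC1*. With each library left out in turn it ran from 0.95 to 1.19 for *HSFB4* and from 0.97 to 1.25 for *HSFC1*, on both sides of the threshold. Replicate 3 of *GmMYB21a-OE2* had the highest *HSFB4* and the lowest *HSFC1* of its group, at 6.45 and 3.28 CPM. For neither gene did the lines overlap at HT, as was so for 13.6% of the 41260 genes tested in this direction. Of those genes, 1.94% were higher in *GmMYB21a-OE2* past both thresholds, an adjusted p-value below 0.05 and a log2 fold change of at least 1.

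The NT libraries had no part in the choice of the genes, and there the lines were compared by edgeR's quasi-likelihood test over all genes. The log2 fold change of *GmMYB21a-OE2* against TL1 was -0.11 ± 0.13 (SE) for *HSFB4*, with an adjusted p of 0.666 by edgeR. For *HSFC1* it was -0.27 ± 0.19 (SE), with an adjusted p of 0.429 by edgeR. Neither difference exceeded the spread between replicates, whereas 10.8% of the 41292 genes tested, or 4472 genes, had an adjusted p-value below 0.05. That share is itself uncertain, since the number of genes was 2599 without replicate 1 of TL1 at NT and 2264 with all 12 libraries in one fit. Both estimates were below 0, opposite in sign to those at HT. For *HSFB4* the sign rested on 1 library, since the estimate was 0.0059 without replicate 1 of *GmMYB21a-OE2* at NT. For *HSFC1*, the NT groups overlapped by CPM but not when counts were scaled to CPM by the total alone, where TL1 had 2.46 to 2.90 and *GmMYB21a-OE2* 1.71 to 2.41 on that scale. By CPM, 13.7% of the genes tested were lower in *GmMYB21a-OE2* without overlap. The log2 fold change at HT exceeded that at NT by 1.15 ± 0.22 (SE) for *HSFB4* and by 1.28 ± 0.28 (SE) for *HSFC1*. Without replicate 3 of *GmMYB21a-OE2* at HT these were 1.05 and 1.41. They include the HT libraries that chose the genes and were not tested.

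The heat change took a different form in each gene. In TL1, *HSFB4* was 2.79-fold lower at HT than at NT, at -1.48 ± 0.15 (SE) on the log2 scale. The libraries at HT and NT did not overlap, as for 37% of the 41422 genes tested in this direction. In *GmMYB21a-OE2* the log2 fold change of *HSFB4* was -0.33 ± 0.15 (SE), and the libraries at HT and NT overlapped. *HSFC1* had a log2 fold change of -0.46 ± 0.21 (SE) in TL1 and of 0.82 ± 0.19 (SE) in *GmMYB21a-OE2*, a 1.77-fold higher level. In *GmMYB21a-OE2* its libraries at HT were all above those at NT, as for 35.4% of the 41717 genes tested. In TL1 its libraries at HT were all below those at NT by a narrow margin, 2.47 against 2.49 CPM, and overlapped when counts were scaled to CPM by the total alone, 2.51 against 2.46 on that scale. Without replicate 3 of *GmMYB21a-OE2* at HT, the log2 fold changes in *GmMYB21a-OE2* were -0.43 for *HSFB4* and 0.94 for *HSFC1*. Of the 42839 genes tested over all 12 libraries, 1.21% were lower at HT without overlap in TL1 and higher without overlap in *GmMYB21a-OE2*, as *HSFC1* was by CPM. Since the HT libraries chose the genes, these values within each line carry no test either.

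The heat change averaged over both lines weights the lines equally, so that the line difference at HT cancels out of it. It was tested, although it still uses the HT libraries that chose the genes. The choice drops out fully only where both HT groups vary alike. Heated TL1 varied more than heated *GmMYB21a-OE2*, with a coefficient of variation of 16.9% against 11.4% for *HSFB4* and 21.8% against 15.5% for *HSFC1*. The p-values of this test may thus not be free of the choice. *HSFB4* was 1.88-fold lower at HT, a heat change of -0.91 ± 0.11 (SE) on the log2 scale with an adjusted p of 1.58e-07 by edgeR over all 12 libraries. Heat changes were widespread in these buds, and 38.2% of the 42839 genes tested fell with an adjusted p-value below 0.05. Of all genes tested, 16.3% had a more negative heat change than *HSFB4*. *HSFC1* had an averaged heat change of 0.18 ± 0.14 (SE), with an adjusted p of 0.247 by edgeR, and did not exceed the spread. That average combines values of opposite sign, -0.46 in TL1 and 0.82 in *GmMYB21a-OE2*, so it does not show that heat left *HSFC1* unchanged. Without replicate 3 of *GmMYB21a-OE2* at HT the averaged values were -0.96 for *HSFB4* (adjusted p = 8.49e-09) and 0.24 for *HSFC1* (adjusted p = 0.119), both in edgeR.

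**Figure D2:**
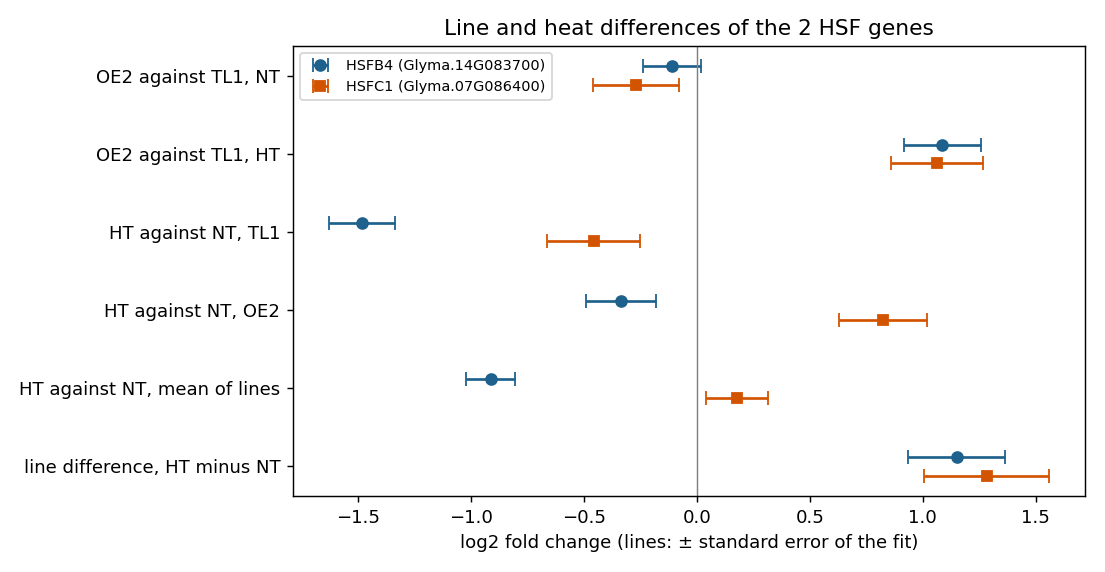
Log2 fold changes of *HSFB4* (circles) and *HSFC1* (squares) with the standard error of the edgeR fit for the line difference at NT and HT, the heat change in each line and averaged over the lines, and the line difference at HT minus that at NT. The line differences of both genes lie together near 1.1 at HT, while the heat changes of *HSFB4* lie about 1 log2 unit below those of *HSFC1* in each line.

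The heat changes of the 2 genes were then compared with each other through the log2 ratio of their counts within each library, which needs no normalization between libraries. Its change with temperature, not its size, is read here, since gene length was not considered. The log2 ratio of *HSFB4* to *HSFC1* was 1.51 ± 0.0835 in TL1 and 1.67 ± 0.525 in *GmMYB21a-OE2* at NT, and 0.494 ± 0.235 and 0.520 ± 0.394 at HT (SD, n = 3 each). All 6 libraries at HT had a lower ratio than the 6 at NT, at 0.270 to 0.975 against 1.30 to 2.27. Averaged over the lines, the ratio at HT minus that at NT was -1.08 on the log2 scale, which restates the averaged heat changes of the genes without normalization. It lay between -1.19 and -0.93 when each library was left out in turn, and was -1.19 without replicate 3 of *GmMYB21a-OE2* at HT. The comparison was chosen after the levels had been seen and is given as a description, with no test.

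The readable part of the study's annotation of its differentially expressed genes at HT names 7 other genes of the heat response, by the terms response to heat and cellular heat acclimation or by a DnaJ name. They were picked in the same HT contrast as the *HSFs*, where they had log2 fold changes from 1.04 to 2.88. *WRKY33* in Arabidopsis encodes a transcription factor of the response to necrotrophic fungi and to heat, and 3 of the genes carry its name. *FKBP62* encodes a prolyl isomerase that in Arabidopsis binds HSP90, and DnaJ proteins are co-chaperones of HSP70. The NT libraries were not part of that choice. There, 4 of the 7 genes were lower in *GmMYB21a-OE2* than in TL1 at an adjusted p below 0.05 by edgeR and none was higher, against 4.86% lower and 5.97% higher of all genes tested, shares that rest on the same uncertain number. The median log2 fold change of the 7 was -0.77, against -0.01 for all genes tested, and the values ran from -1.24 to -0.19. The 4 were the 3 *WRKY33* genes and the DnaJ gene Glyma.05G119200. The *WRKY33* gene Glyma.18G208800 was at 6.69 to 7.96 CPM in TL1 and at 3.79 to 4.39 CPM in *GmMYB21a-OE2*, which is -0.86 ± 0.13 (SE) on the log2 scale, with an adjusted p of 6.91e-05 by edgeR. For the other 3, the log2 fold changes were -1.24 for Glyma.01G128100, -0.85 for Glyma.05G119200 and -0.77 for Glyma.09G280200 (adjusted p = 0.00711, 0.00549 and 0.0106 in edgeR). Without replicate 1 of TL1 at NT, Glyma.01G128100 and Glyma.09G280200 had adjusted p-values of 0.102 and 0.120 in edgeR, and without replicate 2 of TL1 at NT Glyma.05G119200 had 0.0550. At NT the estimates of both *HSFs* were closer to 0 than that of any of the 4, and neither was called.

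In the heat change averaged over both lines, 2 of the 7 rose, 1 fell and 4 did not pass the test, against 38.1% of all genes tested rising and 38.2% falling. Their median log2 heat change was 0.19. The tests of these 7 genes also use the HT libraries that picked them, with the limit given above for the averaged heat change. The DnaJ gene Glyma.08G074200 rose by a log2 value of 0.87 ± 0.10 (SE), with an adjusted p of 1.49e-07 by edgeR, and the *FKBP62* gene Glyma.08G168700 by 0.48 ± 0.06 (SE), with an adjusted p of 7.34e-07 by edgeR. The *WRKY33* gene Glyma.01G128100 had a log2 heat change of -1.26 ± 0.25 (SE), with an adjusted p of 0.000108 by edgeR. Averaged over the lines, *HSFB4* thus shared a lower level at HT with 1 of these 7 genes. *HSFC1*, like 4 of them, had no averaged change past the test. A small average can hold opposite changes in the lines, as for Glyma.05G119200, at -1.96 in TL1 and 1.72 in *GmMYB21a-OE2*. Without overlap, 6 of the 7 were lower at HT in TL1, as *HSFB4* was, and 6 were higher in *GmMYB21a-OE2*. Shares of all genes tested were 37% and 35.4%. The HT libraries picked these genes, so nothing is read from these numbers. Glyma.08G168700 was at 17.1 to 17.3 CPM in heated *GmMYB21a-OE2*, its highest group, and at 8.07 to 9.04 CPM in heated TL1.

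**Figure D3:**
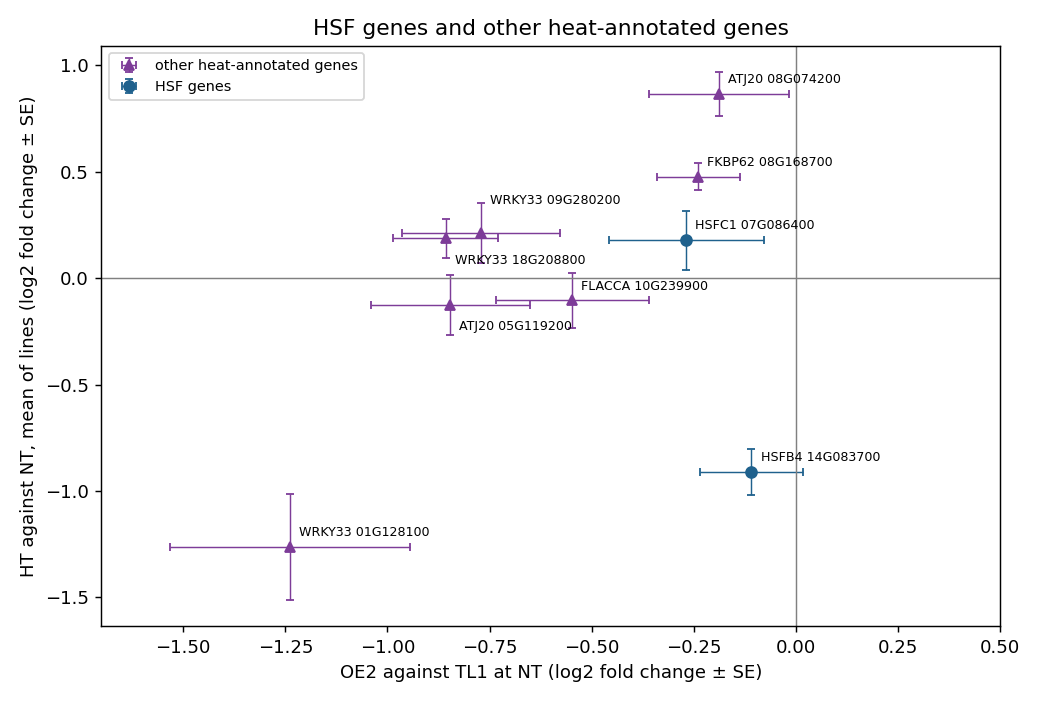
Log2 fold change of *GmMYB21a-OE2* against TL1 at NT (x axis) and heat change averaged over both lines (y axis), each with the standard error of the edgeR fit, for the 2 *HSFs* (circles) and the 7 other heat-annotated genes (triangles), labelled with the annotated name and the end of the identifier. All 9 lie left of 0 at NT, although *HSFB4* was at 0.0059 without replicate 1 of *GmMYB21a-OE2* at NT, and *HSFB4* at -0.91 and the *WRKY33* gene Glyma.01G128100 at -1.26 lie far below the rest on the y axis.

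The patterns of the 2 *HSFs* over the 12 libraries were only weakly alike, with a Pearson's r of 0.34 between their log2 CPM. For each gene, the genes with the most similar pattern were sought among the 42838 others by r over the 12 libraries. The points share 4 groups of 3 libraries, and r is given as a description. Because r over these same libraries chose the genes, an order of groups shared with the HSF gene came with the choice. For *HSFB4* these were Glyma.04G151700, Glyma.10G170400 and Glyma.18G205100, with r of 0.976, 0.972 and 0.971, none of them named in the sources used here. Glyma.04G151700 was at 1.99 ± 0.202 CPM in TL1 and 2.11 ± 0.595 CPM in *GmMYB21a-OE2* at NT, and at 0.326 ± 0.0835 and 1.64 ± 0.560 CPM at HT (SD, n = 3 each). Like *HSFB4*, it was lowest in heated TL1, and its libraries of *GmMYB21a-OE2* at HT and NT overlapped. For *HSFC1* they were Glyma.18G026800, Glyma.01G212100 and Glyma.08G125100, with r of 0.953, 0.949 and 0.945. The study's annotation matches Glyma.18G026800 to the protein kinase gene *CCR3*. This gene was at 0.555 ± 0.0406 CPM in TL1 and 0.410 ± 0.193 CPM in *GmMYB21a-OE2* at NT, and at 0.303 ± 0.183 and 1.02 ± 0.159 CPM at HT (SD, n = 3 each). It was highest in heated *GmMYB21a-OE2*, as was *HSFC1*, but at levels too low to order its other groups.

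**Figure D4:**
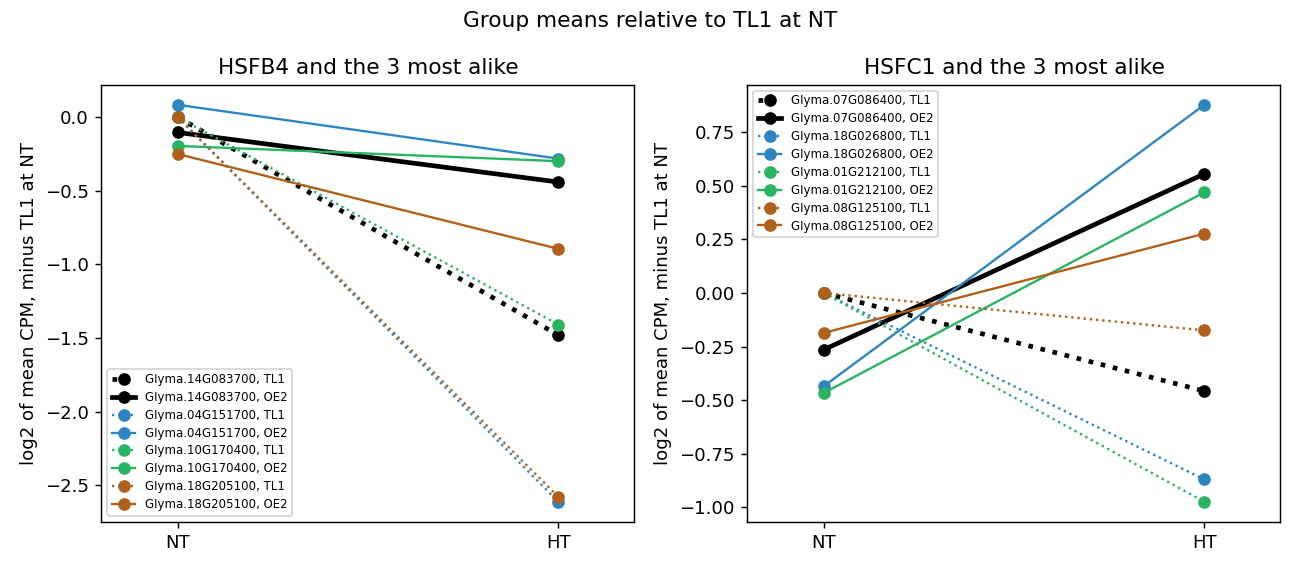
Log2 of the mean CPM of *HSFB4* (left, thick) and *HSFC1* (right, thick) and of the 3 genes most like each, relative to TL1 at NT, at NT and HT in TL1 (dotted) and *GmMYB21a-OE2* (solid). On the left the dotted lines descend to HT more steeply than the solid ones. On the right the solid lines ascend and the dotted ones descend.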

How the data were processed

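The authors deposited whole-number counts of reads per gene, without normalization, for 12 libraries (52872 Glyma genes and 936 new genes). Reads were trimmed and filtered for quality, and the submitters' processing notes name StringTie 2.1.3b. The aligner, genome build and use of strand are not given in the sources used here, so reads shared with close copies or antisense genes cannot be told apart. CPM used TMM library sizes over the 12 libraries. Fits used edgeR 4.0.16 (R 4.3.3), filterByExpr at its default settings, its quasi-likelihood test and Benjamini-Hochberg adjustment over all genes tested, with an adjusted p-value below 0.05 as the call. Each comparison within a line or temperature used its own 6 libraries. The averaged heat change and the difference between temperatures used all 12. Log2 CPM for correlations had 0.5 added to each count, as had the counts in the log2 ratio.

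On simulated counts, the fit recovered 200 of 200 genes changed 4-fold for the averaged heat change among 42266 genes and 198 of 200 for the NT line difference among 41352, with 14 other calls in each. Only these 200 genes were changed, so the simulation does not show how the fit does under widespread heat changes. Nor does it cover the smaller folds of the *HSFs*. Named genes were the HSF pair, *GmMYB21a*, the 7 heat-annotated genes, 3 sporopollenin genes as markers and, for each HSF gene, the 3 highest r. Other HSF and heat shock protein genes could not be listed, since no table used here pairs their names with Glyma identifiers. The genes and lists were chosen with earlier results of these data known. Alternatives were RLE size factors, DESeq2 1.42.0, no filter, the replicate number as a block, all 12 libraries in one fit and each library left out in turn. The labels name biological replicates by number only, and p-values measure the spread between these samples. Figures were made with Python 3.11.15 and matplotlib 3.10.9.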

Additional observations from a re-analysis of the deposited data

Results flagged for a closer look

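*HSFC1* (Glyma.07G086400) had all its TL1 libraries lower and all its *GmMYB21a-OE2* libraries higher at HT than at NT. The log2 heat changes of the lines differed by 1.28. The lower position in TL1 held by CPM but not when counts were scaled to CPM by the total alone. The same opposite directions were found for 5 of the 7 heat-annotated genes. The heat changes of the lines differed by a log2 value of 3.68 for Glyma.05G119200, 2.01 for Glyma.18G208800, 1.99 for Glyma.09G280200, 1.63 for Glyma.10G239900 and 1.23 for Glyma.08G168700. None of these differences was tested, because the HT libraries had served to choose the genes. Both patterns together were found for 1.21% of the 42839 genes tested, but the choice of these genes for a higher level in heated *GmMYB21a-OE2* than in heated TL1 uses the same HT libraries, so nothing is read from their number. The heat change in TL1 was small for Glyma.08G168700, at -0.13 ± 0.10 (SE) on the log2 scale.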

How the results depend on the processing

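For the 2 *HSFs*, 204 of 205 alternative values of the levels, heat changes, line differences and the ratio stayed alike. For a level, which has no direction, this meant a mean within the SD between replicates. With n = 3, leaving a library out cannot move a mean that far, so those values had to stay alike. For untested differences it meant the same direction and a shift below the pooled SD between replicates, which leaving a library out can seldom exceed. For tested differences it meant the same direction and the same side of 0.05 in adjusted p. For the ratio it meant the same direction and the same side of 0.05 in a permutation p that is not read here. No tested value crossed an adjusted p of 0.05. The untested HT line difference fell below the study's log2 fold change of 1 in 6 of 22 alternatives, 2 for *HSFB4* and 4 for *HSFC1*. The exception in direction was the NT line difference of *HSFB4*, which lay between -0.27 and 0.0059 when each library was left out and passed the test in none of these fits. The averaged heat change of *HSFB4* lay between -0.97 and -0.84 over all alternatives, with adjusted p-values of at most 1.33e-06, and that of *HSFC1* between 0.09 and 0.24, with adjusted p-values of at least 0.119. The number of genes with a line difference at NT went from 4472 to 2264 with all 12 libraries in one fit, and to between 2599 and 5631 when each library was left out; the cause was not tested. Same-numbered replicates did not in general deviate together, with r over 0.1 in 2 of 12 pairs. Their r ran from -0.25 to 0.22, against -0.21 to 0.19 for pairs of unlike number. Both pairs over 0.1 joined NT and HT libraries of *GmMYB21a-OE2*, at 0.13 for replicate 1 and 0.22 for replicate 3. With the replicate number as a block, the averaged heat change was -0.91 for *HSFB4* and 0.18 for *HSFC1*, and 5398 genes had a line difference at NT. Of the heat-annotated genes, Glyma.18G208800 passed the averaged heat test without the filter (an adjusted p of 0.0477 by edgeR) and without replicate 1 of TL1 or replicate 3 of *GmMYB21a-OE2* at HT, and Glyma.10G239900 passed at NT without replicate 2 of TL1 (adjusted p = 0.0338 in edgeR). Low counts, with at most 184 per library for *HSFC1*, limit what can be detected in the *HSFs*.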
